A study of Mus musculus with 6 samples.

Results

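Open chromatin that lies where the ends of neighbouring genes come close together was described in mouse pancreatic islets. ATAC-seq, in which the Tn5 transposase cuts and tags accessible DNA, gave a list of peaks for each of 6 libraries. Overlapping peaks of the 6 lists were merged into 13633 regions. The regions described here are the 870 whose midpoint lay within 1000 bp of a start or end of at least 2 different protein-coding genes. They touched 1635 genes. Of the rest, 3871 regions lay at the ends of exactly 1 gene and serve as the comparison.

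All islets came from mice 16 weeks old and carried an adenovirus for 48 h in culture. Wild-type islets with the GFP virus form the control-GFP group, islets lacking Rictor in beta cells (βRicKO) with the GFP virus form knockout-GFP, and βRicKO islets with the Acsl4 virus form knockout-Acsl4, each with 2 libraries. Every group therefore carries a virus, and no group holds wild-type islets with the Acsl4 virus. Rictor defines the kinase complex mTORC2, and Acsl4 activates long-chain polyunsaturated fatty acids. No source used here gives the Cre line behind the beta cell deletion or any pooling of mice, and p-values measure the spread between these libraries, which may be technical. About 50 islets, with all their cell types, went into a library, so fewer open cells and less openness per cell cannot be told apart.

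Neighbouring genes can be arranged in several ways. In a head-to-head pair the 2 starts face away from each other and often share one stretch of nucleosome-free DNA, called a bidirectional promoter. In a head-to-tail pair one gene begins where the other ends, and in a tail-to-tail pair both genes end at the same place. Bidirectional promoters are usually rich in CpG dinucleotides, lack a TATA box, and often drive genes that every cell needs, such as those of DNA repair, the mitochondrial ribosome and chaperones. Replication-dependent histone genes form another well known class of divergent pairs.

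The DNA between the starts is printed first for pairs that the results return to. Each sequence is the whole stretch between the RefSeq starts of a head-to-head pair on the plus strand of GRCm38.p6, and the gene named first is transcribed to the left. Capitals mark matches on either strand to CCAAT, the box bound by NFY, to GGGCGG, the GC box of SP and KLF factors, or to GCGCATGC, part of the NRF1 site. Adjacent matches can run together. The first 3 pairs were among the most recurrent, and lie at chr9:4309618-4309742, chr14:45219552-45219684 and chr3:144570217-144570426.
Aasdhppt to Kbtbd3: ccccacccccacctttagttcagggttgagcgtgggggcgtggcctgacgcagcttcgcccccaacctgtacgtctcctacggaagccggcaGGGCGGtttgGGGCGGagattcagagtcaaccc
Txndc16 to Gpr137c: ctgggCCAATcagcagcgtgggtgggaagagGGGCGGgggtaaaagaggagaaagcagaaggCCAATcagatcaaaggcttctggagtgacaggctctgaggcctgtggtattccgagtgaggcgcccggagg
Hs2st1 to Selenof: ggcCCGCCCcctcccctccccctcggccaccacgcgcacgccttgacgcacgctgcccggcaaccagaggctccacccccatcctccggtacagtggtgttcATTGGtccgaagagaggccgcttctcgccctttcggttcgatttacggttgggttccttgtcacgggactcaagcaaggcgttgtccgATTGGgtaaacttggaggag

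The next pairs join genes of basic cell functions. Psma2 and Mrpl32 encode a proteasome and a mitochondrial ribosome subunit (chr13:14613038-14613241). Sars2 and Mrps12 encode a mitochondrial tRNA synthetase and a mitochondrial ribosome protein (chr7:28741822-28741956), Rpl36al and Mgat2 a ribosomal protein and an N-glycan transferase (chr12:69184068-69184157), and Atm and Npat the DNA damage kinase and an activator of histone genes (chr9:53536829-53536888).
Mrpl32 to Psma2: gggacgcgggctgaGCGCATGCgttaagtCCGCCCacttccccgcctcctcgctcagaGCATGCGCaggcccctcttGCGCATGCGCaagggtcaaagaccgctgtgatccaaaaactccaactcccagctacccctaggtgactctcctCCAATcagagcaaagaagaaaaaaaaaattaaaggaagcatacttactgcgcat
Mrps12 to Sars2: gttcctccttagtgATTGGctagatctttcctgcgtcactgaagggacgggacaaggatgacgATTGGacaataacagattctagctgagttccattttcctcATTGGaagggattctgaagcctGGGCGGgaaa
Rpl36al to Mgat2: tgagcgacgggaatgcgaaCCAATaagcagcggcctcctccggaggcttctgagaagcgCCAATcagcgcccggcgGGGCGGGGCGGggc
Atm to Npat: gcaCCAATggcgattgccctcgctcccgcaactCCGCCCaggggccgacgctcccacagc

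A histone pair and a pair with a splicing factor show CCAAT boxes without a GC box. H2ac12 and H2bc12 lie at chr13:22035644-22035820, and Hnrnpc, an RNA-binding protein of nascent transcripts, faces Rpgrip1 at chr14:52104040-52104240.
H2ac12 to H2bc12: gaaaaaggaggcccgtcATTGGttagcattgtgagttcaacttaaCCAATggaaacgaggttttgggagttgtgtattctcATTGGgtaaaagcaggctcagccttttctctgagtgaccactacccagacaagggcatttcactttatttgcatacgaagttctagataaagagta
Hnrnpc to Rpgrip1: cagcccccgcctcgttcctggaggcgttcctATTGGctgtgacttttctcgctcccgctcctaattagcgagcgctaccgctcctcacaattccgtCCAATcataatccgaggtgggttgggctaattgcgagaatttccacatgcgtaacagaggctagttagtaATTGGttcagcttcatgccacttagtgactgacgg

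The printed sequences are examples and held the 3 motifs in different mixtures. Over 292 stretches between facing starts at these regions, CCAAT occurred in 33.6%, GGGCGG in 44.2% and GCGCATGC in 5.48%. For the 93 of regions in 3 or more libraries, these shares were 43.0%, 59.1% and 6.45%. Between Psma2 and Mrpl32 the NRF1 letters matched 4 times, including the overlapping forward and reverse match of a palindrome, beside 1 CCAAT box and 1 GC box. The Sars2 and Mrps12 stretch held 3 CCAAT boxes and 1 GC box, and that of Rpl36al and Mgat2 held 2 of each. The histone pair and the Hnrnpc pair held 3 CCAAT boxes each and no GC box. A match is a run of letters and does not show that a factor binds there.

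The number of peaks at such places varied widely between libraries. The libraries control-GFP 1 and 2 had 584 and 85 peaks in these regions, knockout-GFP 1 and 2 had 328 and 639, and knockout-Acsl4 1 and 2 had 38 and 32. The deposited lists held 525 to 5874 peaks, and no source used here gives the read depth. The library knockout-Acsl4 2 stood apart, with the longest list and the lowest share at gene ends. Within control-GFP, library 2 had 84 of the 870 regions and library 1 had 581. Of 30 marker genes of islet and other pancreatic cell types, 2 beta cell markers had a gene-end peak in control-GFP 1 and 2 in knockout-GFP 2, and 0 of the 30 had one in the other 4 libraries. None of the 30 lay at a region of 2 genes, so the peak lists say little about cell types. Rictor, Acsl4 and Foxo1 have no other gene's end within 1000 bp of their own ends and lay at none of the 870 regions.

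As a share of each list, peaks between close gene ends made up 13.1% in control-GFP 1 (95% exact interval 12.2 to 14.2), 5.22% in control-GFP 2 (4.19 to 6.42), 14.9% in knockout-GFP 1 (13.4 to 16.4) and 15.01% in knockout-GFP 2 (14.0 to 16.1). In knockout-Acsl4 1 and 2 they made up 7.24% (5.17 to 9.80) and 0.545% (0.373 to 0.768). These intervals cover counting error only. Both knockout-GFP libraries lay above both control-GFP libraries, and both knockout-Acsl4 libraries lay below both knockout-GFP libraries. Knockout-Acsl4 and control-GFP overlapped. When each list was reduced to its 525 best peaks, the length of the shortest list, control-GFP and knockout-GFP overlapped too: their difference was 3.14 points (two-sided exact permutation p = 0.667).

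The mean share was 9.18% ± 5.60 in control-GFP. It was 14.9% ± 0.100 in knockout-GFP and 3.89% ± 4.73 in knockout-Acsl4 (SD over 2 libraries in each group). Knockout-GFP was 5.76 percentage points above control-GFP (two-sided exact permutation p = 0.333), and knockout-Acsl4 differed from knockout-GFP by −11.05 points (exact permutation p = 0.333). Knockout-Acsl4 differed from control-GFP by −5.29 points (exact permutation p = 0.667). With 2 libraries against 2 the smallest possible p is 0.333, so none of these differences can pass a threshold of 0.05. Without control-GFP 2 the first difference shrank to 1.79 points, and without control-GFP 1 it was 9.78. The last difference was −1.27 points without control-GFP 1, −9.26 without control-GFP 2, −8.64 without knockout-Acsl4 1 and −1.95 without knockout-Acsl4 2. With the better 50% of each list it was −9.56 points and the groups did not overlap (exact permutation p = 0.333).

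The same order was not seen when only peaks at gene ends were counted. Of the peaks at any gene end, the share lying at 2 or more genes was 18.8% and 24.2% in control-GFP 1 and 2, 22.2% and 19.98% in knockout-GFP 1 and 2, and 20.1% and 11.3% in knockout-Acsl4 1 and 2. Control-GFP had the highest value of the 6 libraries and its range enclosed that of knockout-GFP. The share of all peaks at exactly 1 gene moved with the first measure: it was 56.9%, 16.3%, 52.0%, 60.1%, 28.8% and 4.29% in the same order of libraries. Its part in the difference between groups was not tested.

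**Figure D1:**
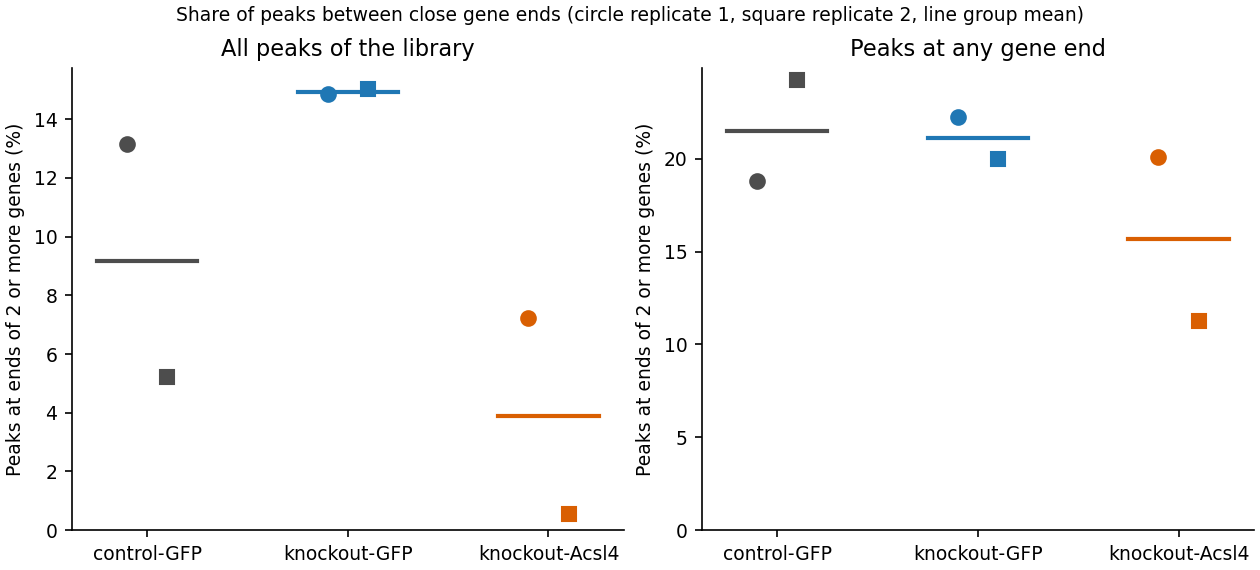
Peaks in regions at the ends of 2 or more genes, as a percent of all peaks of a library (left) and of its peaks at any gene end (right), by group; points are libraries and lines are group means. On the left both knockout-GFP libraries sit near 15% above the other 4, while on the right the control-GFP points at 18.8% and 24.2% enclose the knockout-GFP points.

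The arrangement of the genes was the clearest feature of these regions. Strand was known for both nearest genes in 672 of the 870. Of these, 539 (80.2%) lay at head-to-head pairs and 107 at head-to-tail pairs, where the start of a gene follows the end of its neighbour. A further 15 lay at 2 starts on the same strand, 10 at a start and an end on opposite strands, and 1 at a tail-to-tail pair. Thus 671 of the 672 lay at the start of at least 1 gene. Regions at exactly 1 gene also lay mostly at starts, 97.0% of the 3153 with known strand.

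Gene pairs of the annotation were also counted directly, starting from genes. Among 896 head-to-head pairs of RefSeq with starts within 1000 bp, 513 (57.3%) had a peak midpoint within 1000 bp of both starts in at least 1 library. The count was 99 of 506 head-to-tail pairs (19.6%) and 1 of 725 tail-to-tail pairs (0.138%). In smaller classes it was 18 of 40 pairs with 2 starts on the same strand (45%) and 12 of 42 with a start and an end on opposite strands (28.6%). A high share was therefore not limited to head-to-head pairs. Starts with no other gene end within 1000 bp, called isolated starts here, were marked in 2932 of 14824 cases (19.8%). A head-to-head pair offers 2 starts to be marked and an isolated start 1.

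Head-to-head pairs were marked more often than isolated starts in each of the 6 libraries. The shares were 41.1% against 13.4% in control-GFP 1 and 6.14% against 1.44% in control-GFP 2. They were 23.9% against 6.41% in knockout-GFP 1 and 44.8% against 14.0% in knockout-GFP 2. In knockout-Acsl4 they were 3.12% against 0.809% in library 1 and 1.79% against 0.965% in library 2. The mean difference was 14.0 points ± 13.2 (SD, 6 libraries; two-sided exact sign-flip permutation p = 0.03125, the smallest possible). After Benjamini-Hochberg adjustment over the family of 6 tests the exact permutation p was 0.09375 and missed 0.05. The size moved with list length: the mean difference was 8.59 points with the better 50% of each list and 2.71 points with lists of 525 peaks (exact permutation p = 0.0625).

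Tail-to-tail pairs join 2 gene ends and were set against gene starts. Their marked share was below that of isolated starts in 6 of 6 libraries, by a mean difference of −6.15 points ± 6.22 (exact sign-flip permutation p = 0.03125, adjusted 0.09375). With the better 50% of each list it was −3.29 points, and with lists of 525 peaks −1.03. Regions at exactly 1 gene lay at starts in 97.0% of cases with known strand, and isolated gene ends were not counted. The difference therefore sets ends against starts and does not describe the pairing. Knockout-Acsl4 2 held the only marked tail-to-tail pair, and the other 5 libraries held 0 of 725. Head-to-tail pairs were close to isolated starts, with 10.9%, 0.988%, 4.74%, 13.0%, 0.988% and 1.19% marked in the order of libraries used above. They were higher in 2 of 6 libraries, with a mean difference of −0.868 points ± 1.09 (exact sign-flip permutation p = 0.125, adjusted 0.1875).

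**Figure D2:**
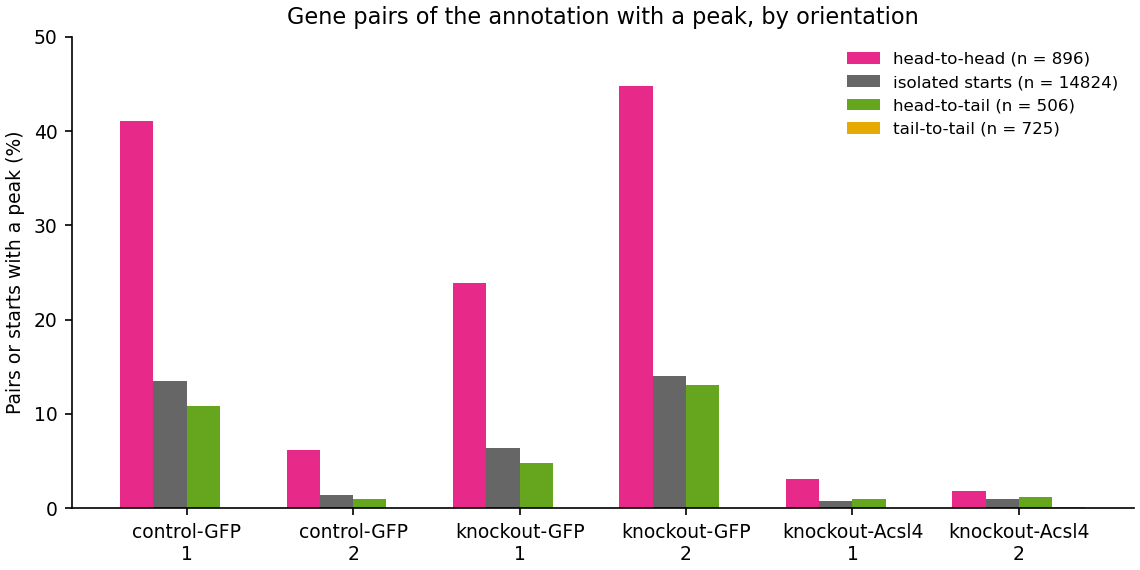
Percent of head-to-head, head-to-tail and tail-to-tail gene pairs, and of isolated starts, with a peak in each of the 6 libraries; n is the number in the RefSeq annotation. The head-to-head bar is the tallest in every library, from 1.79% in knockout-Acsl4 2 to 44.8% in knockout-GFP 2, and the tail-to-tail bar is 0 in 5 libraries.

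CpG content moved with marking and was set beside this difference. The ratio of observed to expected CpG in the 300 bases around the start had a median of 0.851 for genes of the head-to-head regions, 0.824 for starts at regions of 1 gene, 0.804 for head-to-head genes at no such region and 0.577 for all 17492 genes of the promoter table. Among promoters with a ratio of at least 0.6, chosen after the data were seen, 668 head-to-head pairs exceeded 6482 isolated starts by a mean of 10.4 points ± 9.21, in 6 of 6 libraries (exact sign-flip permutation p = 0.03125). At a ratio of 0.8 or more, knockout-GFP 2 marked 52.0% of pairs and 33.3% of isolated starts. At a ratio under 0.4 it marked 22.2% of 117 pairs, by their lower promoter, and 0.885% of 6444 isolated starts. Within single CpG classes, knockout-Acsl4 went the other way in 3 cases. At a ratio of 0.4 to 0.6, library 1 marked 0% of 111 pairs and 0.211% of isolated starts, and library 2 marked 0.901% and 1.11%. At 0.6 to 0.8, library 2 marked 0.697% of 287 pairs and 1.54% of isolated starts. These shares of pairs rest on very few marked pairs. The part of CpG content in the difference was not tested.

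Marking differed between classes of spacing, with no test of the difference. Among 421 pairs with starts 0 to 199 bp apart, control-GFP 1, knockout-GFP 1 and knockout-GFP 2 marked 40.9%, 24.9% and 47.0%. At 200 to 399 bp, with 112 pairs, these shares were 56.2%, 36.6% and 57.1%. At 400 to 599 bp, with 19 pairs, they were 57.9%, 31.6% and 52.6%, so control-GFP 1 had its highest share there. At 600 to 1000 bp, with 31 pairs, they were 29.0%, 12.9% and 22.6%. Where the starts crossed, so that the genes overlap at their 5′ ends, 313 pairs gave 36.1%, 18.5% and 39.0%. Control-GFP 2 had its highest share, 17.0%, in the 200 to 399 bp class as well, against 3.56% at 0 to 199 bp. Knockout-Acsl4 2 had another order, with 1.43% at 0 to 199 bp, 1.79% at 200 to 399 bp, 0% at 400 to 599 bp and 3.23% at 600 to 1000 bp. These shares rest on only 6, 2, 0 and 1 marked pairs.

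The open regions lay close to the starts, with fewer midpoints between them than outside. Of the 539 head-to-head regions, 360 had starts that did not cross, with a median gap of 111 bp. The midpoint of these 360 lay a median of 65.5 bp from the centre of the gap, and 9 in 10 lay within 280 bp of it. In 163 of them (45.3%) the midpoint fell between the starts. Of all 539, the region covered both starts in 262 (48.6%) and at least 1 in 430 (79.8%). A merged region takes the outermost edges of its peaks. The median width was 185 bp for those in 1 library, 321 bp in 2, 406 bp in 3 and 437 bp in 4.

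**Figure D3:**
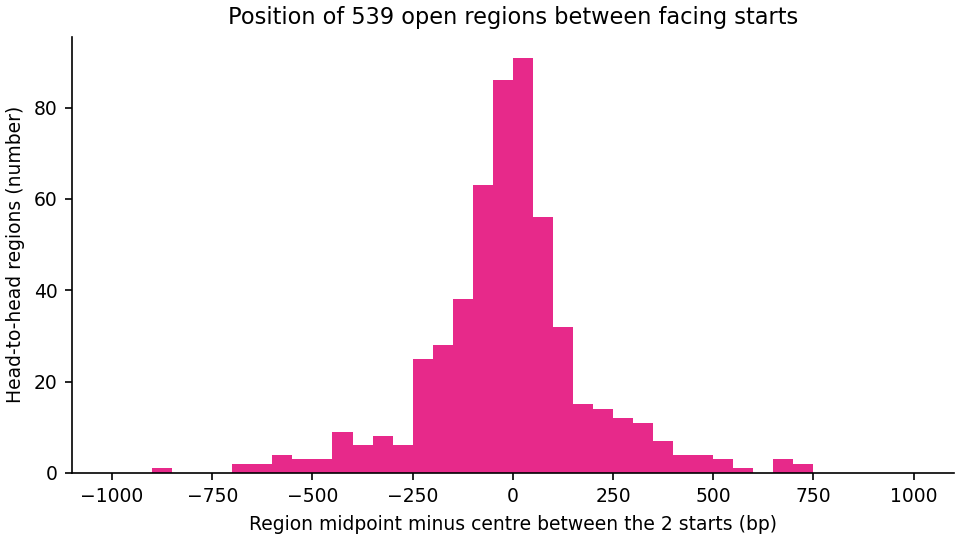
Distance in bp from the centre between the 2 starts to the midpoint of the open region, for 539 head-to-head regions in bins of 50 bp. Most regions form a single peak around 0.

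Motif letters in the 300-base promoters, searched on both strands, differed between these classes. The ETS core CCGGAAG occurred in 26.4% of 1016 genes of head-to-head regions, 25.7% of 763 head-to-head genes without such a region, 17.9% of 2915 starts at regions of 1 gene and 11.9% of all 17492 promoters. The NRF1 letters GCGCATGC had another order, with 7.68%, 3.01%, 7.62% and 3.61%. GGGCGG occurred in 68.1%, 58.6%, 75.6% and 46.3%, and CCAAT in 45.6%, 36.2%, 47.1% and 39.2%. The TATA box TATAAA went the other way, with 4.04%, 7.08%, 5.32% and 13.3%.

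Less frequent motifs followed in the same order of classes. AAGATGGCG, a YY1 site, occurred in 5.51%, 3.93%, 3.43% and 1.92%, TGACGTCA, the cAMP response element, in 3.94%, 3.54%, 4.22% and 2.33%, and the E box CACGTG in 10.5%, 11.9%, 11.01% and 7.91%. ACTACAATT, the start of the motif named GFY, was rare at 0.886%, 1.31%, 0.995% and 0.543%. Promoters of a facing pair overlap, so 1 site can count for both genes. None of these shares was tested.

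Regions between close gene ends recurred across libraries. Of the 870, 496 (57.0%) had a peak in 2 or more libraries and 257 (29.5%) in 3 or more, against 49.9% and 21.7% of the 3871 regions at exactly 1 gene. Over all 13633 regions these shares were 23.1% and 10.6%. Among the 870, 374 were found in 1 library, 239 in 2, 196 in 3, 55 in 4, 5 in 5 and 1 in all 6. Head-to-head regions were found in 2 or more libraries in 60.7% of cases and head-to-tail regions in 41.1%, a difference that was not tested.

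Within a library, the difference from regions of 1 gene was small. In control-GFP 1, 77.5% of its regions between close gene ends were also in another library, against 69.1% of its regions at 1 gene. The corresponding pairs were 84.5% and 78.5% in control-GFP 2, 88.5% and 85.9% in knockout-GFP 1, 73.5% and 71.1% in knockout-GFP 2, 89.5% and 90.5% in knockout-Acsl4 1, and 34.4% and 22.2% in knockout-Acsl4 2. The mean difference was 5.07 points ± 4.76, higher in 5 of 6 libraries, and was not past the threshold (exact sign-flip permutation p = 0.0625, adjusted 0.125). At equal list lengths it turned to −3.92 points.

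Differences in peak strength and width were within the spread between libraries, and the sign of the strength difference depended on the processing. A score percentile ranks a peak by its deposited score within its own list. Its median in regions between close gene ends minus that in regions at 1 gene was 4.71, −0.522, 3.07, 2.00, −6.29 and −1.44 in the order of libraries above. The mean was 0.254 ± 3.92, with 3 libraries on either side of 0 (exact sign-flip permutation p = 0.875, adjusted 1). It turned to −2.34 with a window of 500 bp, −3.06 with 2000 bp, −2.76 with the better 50% of each list, −1.64 without predicted genes and −6.06 with lists of 525 peaks (exact permutation p = 0.0625). Median peak widths ran from 110 bp in knockout-Acsl4 1 to 266 bp in control-GFP 1, and differed from those at 1 gene by a mean of −0.167 bp ± 19.1 (exact sign-flip permutation p = 1).

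**Figure D4:**
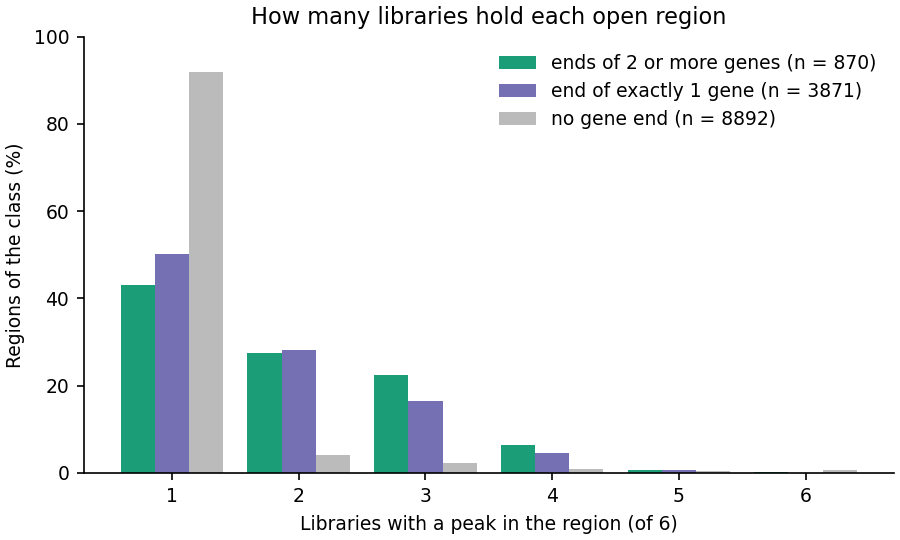
Percent of open regions found in 1 to 6 libraries, for regions at the ends of 2 or more genes, of exactly 1 gene and of none. Regions at 2 or more genes have the shortest bar at 1 library (43.0%) and the tallest at 3 libraries (22.5%).

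The single region found in all 6 libraries was that of Setd3, the actin histidine methyltransferase, and Ccnk, a cyclin of transcription elongation kinases (chromosome 12, 108179299 to 108179783). The starts of these facing genes crossed by 37 bp. Its score was 14.0 and 1.53 in control-GFP 1 and 2, 5.88 and 12.9 in knockout-GFP 1 and 2, and 3.31 and 3.46 in knockout-Acsl4 1 and 2. The score percentiles were 86.9, 4.18, 70.6, 86.7, 41.5 and 89.0, so the region was near the bottom of 1 list and in the upper part of 4. In knockout-Acsl4 2 no region between close gene ends had a higher percentile.

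Of the 5 regions in 5 libraries, that of Chchd7, a small mitochondrial protein, and the zinc finger factor Plag1 had the highest mean percentile, 86.7 (chromosome 4, 3938519 to 3938946). Its scores were 44.9 and 4.87 in control-GFP, 7.90 and 18.7 in knockout-GFP and 8.54 in knockout-Acsl4 1. Kbtbd3 and Aasdhppt, which attaches phosphopantetheine to carrier proteins, had scores of 20.04, 3.33, 9.28, 19.4 and 2.19 in the same libraries (chromosome 9, 4309413 to 4309970). Their starts lie 126 bp apart, and the stretch between them is printed above with 2 GC boxes and no CCAAT box. Both regions were absent from knockout-Acsl4 2.

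Serpini1, a neuronal protease inhibitor, and Pdcd10, an adaptor of vascular integrity, form a known divergent pair with starts 641 bp apart (chromosome 3, 75556842 to 75557620). Their region scored 26.4 and 8.32 in control-GFP, 4.68 and 16.8 in knockout-GFP and 1.36 in knockout-Acsl4 2, and was missing from knockout-Acsl4 1. Phtf2 and the membrane protein Tmem60 (chromosome 5, 20881992 to 20882491) scored 18.2, 2.09, 7.64, 19.2 and 3.10 in all but knockout-Acsl4 2. So did the head-to-tail region of Casp2, an apoptotic protease, and Tmem139, with 17.7, 2.56, 3.94, 12.6 and 3.72. In each of these 5 regions, control-GFP 1 and knockout-GFP 2 had the highest 2 scores. By score percentile this held for all but Serpini1 with Pdcd10, where control-GFP 2 (94.2) ranked above knockout-GFP 2 (93.1).

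Among the 55 regions in 4 libraries, 14 of the 15 with the highest mean percentile were called in exactly the 2 control-GFP and 2 knockout-GFP libraries. They were led by Tomm40, the mitochondrial import channel, with Nectin2 (mean percentile 91.2), Txndc16 with the receptor Gpr137c (90.4), Alg11, a mannosyltransferase of N-glycan assembly, with the copper pump Atp7b (85.1), and the GTPase Rab2b with Tox4 (85.0). The clathrin adaptor subunit Ap2a1 with Tsks (83.1), the centrosomal Cep57 with Fam76b (82.2), Fam160a2 with Cnga4 (81.8), the nucleoporin Nup98 with Pgap2 (81.0) and the ER selenoprotein Selenof with Hs2st1 (80.6) followed. The exception was Ggps1, an enzyme of isoprenoid synthesis, with Arid4b, which scored 28.7 in control-GFP 1, 4.98 and 24.4 in knockout-GFP 1 and 2 and 5.23 in knockout-Acsl4 1. The ranking used the mean over libraries with a peak, so a weak knockout-Acsl4 peak places a region lower. How many of all 55 regions lacked a knockout-Acsl4 peak is not given here. Txndc16 and Gpr137c scored 30.0 and 4.65 in control-GFP and 7.87 and 23.2 in knockout-GFP, and the 133 bases between their starts hold 2 CCAAT boxes and 1 GC box.

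**Figure D5:**
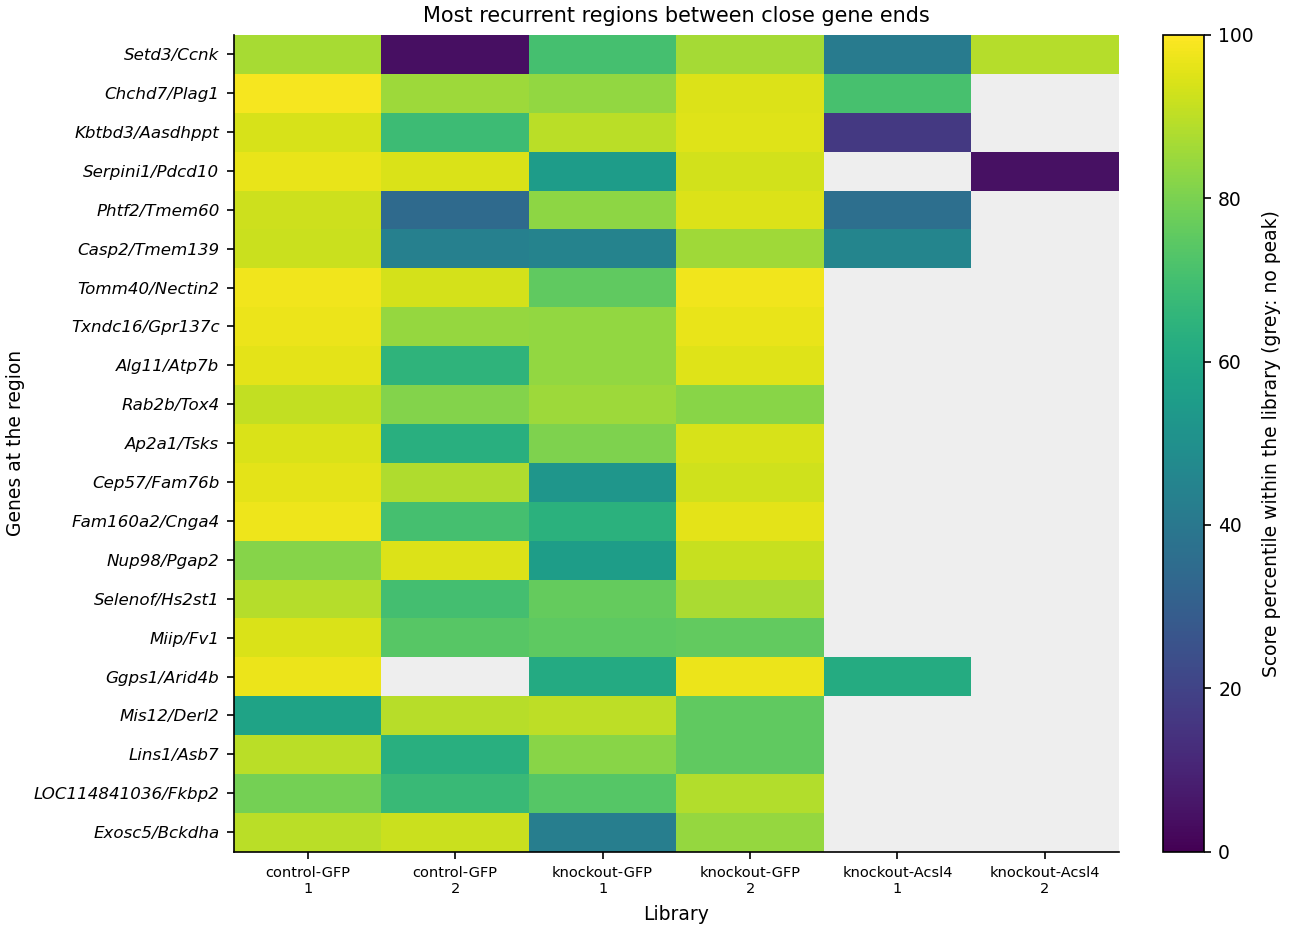
Score percentile within each of the 6 libraries for the 6 regions found in 5 or 6 libraries and the 15 strongest found in 4, one row per region named by its genes; grey means no peak. The knockout-Acsl4 columns are mostly grey, with 1 of the 15 lower rows filled in knockout-Acsl4 1 and 0 in knockout-Acsl4 2. The 15 were picked by mean percentile over the libraries with a peak.

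For knockout-GFP against control-GFP, which addresses loss of Rictor, 36 of the 870 regions had a peak in both knockout-GFP libraries and neither control-GFP library, and 1 had the reverse. Over all 13633 regions the same patterns covered 1.72% and 0.183%. Because many regions appear in 1 list, the better base is the set called in both libraries of a group. Of 260 such regions between close gene ends in knockout-GFP, 13.8% were missing from both control lists, against 15.7% over all regions and 16.9% of those at exactly 1 gene. Of 63 in control-GFP, 1.59% were missing from both knockout-GFP lists, against 6.23% over all and 6.38% of those at exactly 1 gene. The first share is near its background, and the second rests on 1 region. An exact permutation test of a single region, 2 libraries against 2, cannot go below 0.333, and none was run.

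The 10 strongest of the 36 were mixed in function. Maf1, which represses transcription by RNA polymerase III, beside Sharpin of the linear ubiquitin ligase led with scores of 8.86 and 13.9 in knockout-GFP 1 and 2 (mean percentile 88.6). Gpank1 with Csnk2b, the regulatory subunit of casein kinase, scored 9.34 and 9.04. The pair of Tbc1d17, a Rab GTPase-activating protein, and Akt1s1, an AKT substrate that binds and restrains mTORC1, scored 12.3 and 7.79 (chromosome 7, 44848690 to 44849293). Rnf167, a ubiquitin ligase, with Slc25a11, the mitochondrial oxoglutarate carrier, scored 5.96 and 7.92.

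Nudt8 with Tbx10 scored 3.95 and 13.4, and Mrpl37 of the mitochondrial ribosome with Cyb5rl scored 7.56 and 6.27. Prkdc, the DNA-dependent protein kinase, with the replicative helicase subunit Mcm4 scored 4.87 and 9.14. Slc7a6os with the arginine methyltransferase Prmt7 (5.65 and 7.08), Apbb3 with Slc35a4 (9.21 and 4.82) and the deubiquitinase Bap1 with Phf7 (10.6 and 4.53) completed the set. The median percentile of the 36 in the knockout-GFP lists was 49.96, the middle of the lists. Cct7, a chaperonin subunit, and Pradc1 formed the only region called in both control-GFP libraries alone, with scores of 5.39 and 4.06. Without control-GFP 1 the 36 became 214, and without knockout-GFP 1 or 2 it became 207 or 79. The reverse count of 1 became 135 without control-GFP 2, 16 without control-GFP 1, 17 without knockout-GFP 2 and 2 without knockout-GFP 1.

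For knockout-Acsl4 against knockout-GFP, which addresses added Acsl4, 238 of the 870 regions had a peak in each knockout-GFP library but none in knockout-Acsl4, while the opposite pattern covered 0. The background over all regions was 9.03% and 0.0147%. Of the 260 regions with a peak in each knockout-GFP library, 91.5% had the pattern, against 82.6% over all regions and 87.5% of those at exactly 1 gene. The 2 knockout-Acsl4 lists held 38 and 32 of the 870 regions and shared 1, that of Setd3 and Ccnk, so few regions could be present in both. The reverse pattern had 1 region to draw on, and over all regions with a peak in each knockout-Acsl4 library it held for 3.23%. Of the 238, 204 were also called in control-GFP 1.

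The strongest were the pair of Mylpf, a myosin light chain, and Tbc1d10b, with scores of 10.7 and 20.6 in knockout-GFP 1 and 2 (mean percentile 94.1), and Khsrp, an mRNA decay factor, with Slc25a41 (10.1 and 19.3). Rpusd1 with Chtf18 of sister chromatid cohesion (8.83 and 21.8), the CCAAT-binding subunit Nfya with Oard1 (13.9 and 12.8), Spdya with the kinetochore subunit Ndc80 (13.1 and 12.9) and biliverdin reductase Blvrb with Sptbn4 (8.48 and 17.2) came next. Txndc16 with Gpr137c, Alg11 with Atp7b (7.87 and 19.5), the histone demethylase Kdm1b with Tpmt (9.95 and 13.1) and Rpgrip1 with Hnrnpc (7.08 and 27.3) completed the 10. The stretch between Rpgrip1 and Hnrnpc with its 3 CCAAT boxes is printed above. At equal list lengths 15 regions had the pattern, and without knockout-GFP 1 the count was 595.

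Knockout-Acsl4 against control-GFP gave 54 of the 870 regions called in both control-GFP libraries only and 0 in both knockout-Acsl4 libraries only, against 1.91% and 0.022% of all regions. Of the 63 regions called in both control-GFP libraries, 85.7% had the pattern, against 65.1% over all regions and 82.4% of those at exactly 1 gene. The reverse again had 1 region to draw on, against a background of 4.84%. Tomm40 with Nectin2 led, with scores of 34.2 and 7.91 in control-GFP 1 and 2, followed by Abtb1 with Podxl2 (27.1 and 7.601), Cep57 with Fam76b (24.9 and 5.30), Exosc5 of the RNA exosome with Bckdha of branched-chain amino acid breakdown (15.6 and 6.91) and Txndc16 with Gpr137c. Fkbp15 with the copper importer Slc31a1 (20.3 and 5.05), Nup98 with Pgap2 (11.7 and 9.76), the mitotic kinesin Kif18a with Mettl15 (16.4 and 4.30), Rab2b with Tox4 (16.5 and 4.19) and 6030458C11Rik with the microRNA processing enzyme Drosha (10.9 and 6.58) completed the 10. In all 10 the higher score was in control-GFP 1. Ranked within each list, the order changed for some. The percentile was higher in control-GFP 2 for Nup98 with Pgap2 (94.7 against 81.7) and Exosc5 with Bckdha (92.1 against 89.5). So it was for 6030458C11Rik with Drosha (91.3 against 79.9), while the rest of the 10 kept the higher percentile in control-GFP 1. Without control-GFP 2 the count was 543.

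Counted in regions between close gene ends, the largest overlap was between the 2 largest sets, control-GFP 1 (581) and knockout-GFP 2 (633). They shared 421, which is 72.5% of the former and 66.5% of the latter. The knockout-GFP libraries shared 260, or 80.5% of library 1 and 41.1% of library 2. The control-GFP libraries shared 63, or 10.8% and 75%. As a percent of the smaller set, the overlap was 80.5% within knockout-GFP and 75% within control-GFP. Between these groups, control-GFP 1 gave 72.5% with knockout-GFP 2 and 76.8% with knockout-GFP 1. Control-GFP 2 gave 79.8% with knockout-GFP 2 and 56.0% with knockout-GFP 1. Overlaps between the groups thus lay on both sides of that within control-GFP. Knockout-Acsl4 1 had 32 of its 38 regions (84.2%) in common with control-GFP 1 and 31 (81.6%) with knockout-GFP 2, while knockout-Acsl4 2 had 7 (21.9%) and 8 (25%) of its 32 in common with them.

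Known divergent pairs were well represented. Of 16 textbook pairs, 13 had a region at both genes, and Surf1 with Surf2, Col4a1 with Col4a2, and Tk1 with Afmid had none. After Serpini1 and Pdcd10 in 5 libraries, 7 pairs had a region in 3. The chaperonin genes Hspd1 and Hspe1 scored 5.49 in control-GFP 1 and 4.77 and 8.79 in knockout-GFP 1 and 2. In the same 3 libraries Atm and Npat scored 6.42, 2.41 and 11.04, Sars2 and Mrps12 6.26, 2.05 and 11.1, and the purine synthesis genes Ppat and Paics 8.76, 5.69 and 5.71. Trmt2a with Ranbp1 and Brca1 with Nbr1 were also among the 7. Prkdc with Mcm4, described above, was in 2 libraries. Sirt3 with Psmd13 and Tap1 with Psmb9 were each found in 1 library.

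Lists of genes with housekeeping roles held larger shares at these regions than genes in general. Of all 21887 protein-coding genes, 7.47% lay at a region between close gene ends, and 24.8% had another gene's end within 1000 bp of their own. Of 30 DNA repair genes, 9 (30.0%) lay at such a region, of 69 splicing genes 19 (27.5%), of 78 genes of the mitochondrial ribosome 20 (25.6%) and of 105 genes of RNA polymerases and general transcription factors 25 (23.8%). The counts were 23 of 105 for the respiratory chain and ATP synthase (21.9%), 15 of 73 for chaperones (20.5%), 11 of 57 for tRNA and RNA modification (19.3%), 9 of 51 for the proteasome (17.6%) and 6 of 34 for aminoacyl-tRNA synthetases (17.6%). The lists of the cytosolic ribosome, at 10 of 101 (9.90%), and of Rab GTPases, at 6 of 69 (8.70%), were near the value for all genes. All these lists except DNA repair were drawn by patterns of gene symbols, so they can hold genes outside the named class. The cytosolic ribosome list counts the kinase gene Rps6kb1, and the proteasome list counts Psme3ip1.

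The lists also differed in how closely their genes are packed. The share with a close neighbour was 60.0% for DNA repair, 56.4% for the mitochondrial ribosome, 55.2% for the respiratory chain and 47.8% for splicing. Among genes with a close neighbour, the share at an open region was 29.6% over all genes, 50.0% for DNA repair, 54.5% for splicing, 45.5% for the mitochondrial ribosome and 39.7% for the respiratory chain. It was 29.4% for the cytosolic ribosome, 27.8% for Rab GTPases, 11.1% for mTORC2, AKT and FOXO and 0% for antioxidant genes. Zinc finger genes were not densely packed (17.1% with a close neighbour), yet 43.8% of those that were lay at an open region. No list was tested for enrichment.

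Examples from these lists were mostly called in the same 3 libraries. The mitochondrial genes Ndufb5, of respiratory complex I, and Mrpl47 face each other 302 bp apart and scored 5.14 and 6.52 in control-GFP and 2.73 and 12.1 in knockout-GFP. Psma2 and Mrpl32 scored 10.98 in control-GFP 1 and 8.06 and 7.21 in knockout-GFP, and Rpl36al with Mgat2 scored 9.91, 2.71 and 10.3 there. Ppp1r10 with Mrps18b scored 13.7, 4.23 and 9.83 there and 6.02 in knockout-Acsl4 1. Polr2i, a subunit of RNA polymerase II, with Tbcb scored 14.8, 8.23 and 12.4. All but Ndufb5 and Mrpl47 lacked a peak in control-GFP 2, and all lacked one in knockout-Acsl4 2.

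Lists of ER stress, mTORC2 signalling, fatty acid and antioxidant genes were small. For ER stress, 3 of 20 genes (15%) lay at such a region, against 7.47% of all genes: Ddit3, the stress factor CHOP, with Mbd6 scored 10.8 in control-GFP 1 and 5.92 and 19.0 in knockout-GFP, Hsp90b1, an ER chaperone, with Ttc41 scored 8.42, 7.99 and 14.5 there, and Pdia3, a disulphide isomerase, scored 5.51 and 6.19 in control-GFP 1 and knockout-GFP 2. Of 23 genes of mTORC2, AKT and FOXO, Pdpk1, the kinase that activates AKT, was the only one (4.35%), with a score of 5.16 in control-GFP 1. Its region lay at a head-to-tail pair with Kctd5, the nearer gene at 85 bp against 110 bp, so it need not mark the start of Pdpk1. Of 18 genes of acyl-CoA synthesis and fatty acid oxidation there were 3 (16.7%), Acsl3 with scores of 1.97 and 4 in knockout-GFP, and the facing genes Hadha and Hadhb of mitochondrial beta oxidation with 2.18 in control-GFP 1. Acsl3 and Utp14b start at the same base on the same strand, so that region lies at the start of both. None of 21 antioxidant genes lay at one, and 4 of these have a close neighbour.

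Pairs within a gene family were found for core histones and zinc fingers. In 25 regions both nearest genes belonged to one of the gene lists. Both were core histones in 7 of these, all on chromosome 13, and both were zinc finger genes in another 7, of which 2 lie at the same pair, Zfp646 and Zfp668. Of 58 core histone genes, 15 (25.9%) lay at a region between close gene ends, and 72.4% had a close neighbour. H2ac6 with H2bc4 was found in 4 libraries, with scores of 11.1 in control-GFP 1, 4.69 and 9.85 in knockout-GFP and 1.36 in knockout-Acsl4 2. H4c1 with H3c1 was also found in 4, with 5.04, 3.41 and 6.78 in the first 3 of these and 1.57 in knockout-Acsl4 1. H2ac12 with H2bc12, whose stretch is printed above, scored 5.83, 2.20 and 9.74 in control-GFP 1 and knockout-GFP 1 and 2. Histone genes have near-identical copies, so reads from them can be placed with less certainty.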

How the data were processed

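ATAC-seq of 6 libraries was used as deposited peak lists, 1 per library, without headers. Per the submitters' processing notes, the tools were MACS2 2.1.1 and BWA 0.7.10 with SAMtools, Trimmomatic and FastQC, listed with no roles or settings. The deposited score of a peak was read as a −log10 q-value by the authors' peak caller, since the smallest is 1.30. It was used to rank peaks within a list. The notes name the builds hg38 and GRCh38, yet peaks sit at mouse GRCm38 gene starts, so coordinates were read as GRCm38 and are given 1-based.

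Peaks overlapping by at least 1 bp were merged. RefSeq gave 21887 protein-coding genes (GRCm38.p6), and strand and promoter sequences (250 bases before to 50 after a start) for 17492 of them, also from RefSeq. Regions were placed by midpoint. Groups were compared by two-sided exact permutation over libraries, and region classes by exact sign-flip permutation over 6 libraries with Benjamini-Hochberg adjustment over 6 tests. Calculations used Python 3.11.15 with pandas 2.3.3 and NumPy 2.4.6, and were tested on simulated data. Alternatives were other gene-end windows, a stricter overlap, the better 50% of each list, equal list lengths, fewer genes or regions, and leaving out each library.

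The regions, gene lists and tests were chosen with earlier results of these data known. Named are genes of regions in 5 or 6 libraries, the 15 strongest in 4, the 10 strongest per comparison and direction by mean score percentile in that group, up to 4 per list, textbook pairs, regions of the most genes or closest ends, and those at the 1000 bp limit. Some textbook pairs are not reported here by name.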

Additional observations from a re-analysis of the deposited data

How the results depend on the processing

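The excess of head-to-head pairs over isolated starts kept its direction under every alternative run, but ranged from 2.71 to 16.6 points. The marked share of tail-to-tail pairs minus that of isolated starts, which sets gene ends against starts, ran from −7.22 to −1.03 points. Both differences were smallest at equal list lengths. A window of 2000 bp gave 3 control-GFP-only regions against knockout-GFP, an overlap of at least 50% gave 0, and leaving out predicted genes turned the score percentile difference to −1.64. With a window of 500 bp that difference was −2.34 and the width difference 2.00 bp, and with 2000 bp the score difference was −3.06. With the better 50% of each list there were 533 regions, 22 knockout-GFP-only and 2 control-GFP-only regions, 127 knockout-GFP-only regions against knockout-Acsl4, 35 control-GFP-only regions against knockout-Acsl4, and a score difference of −2.76. At equal list lengths these values were 189, 10, 4, 15, 15 and −6.06, and the recurrence difference was −3.92 points.

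Leaving out each library in turn gave 36 to 214 knockout-GFP-only and 1 to 135 control-GFP-only regions in the first comparison, 237 to 595 knockout-GFP-only and 0 to 24 knockout-Acsl4-only regions in the second, and 53 to 543 control-GFP-only and 0 to 23 knockout-Acsl4-only regions in the third. The score difference ran from −0.737 to 1.56 and the width difference from −3.2 to 6.1 bp. With 5 libraries the smallest p is 0.0625. Counts of regions called in 1 group only are limited by the 2 libraries per group and by lists of unequal length.

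With libraries paired by replicate number as a block, the 3 share differences stayed at 5.76, −11.05 and −5.29 points, each with an exact permutation p of 0.5, the smallest 2 pairs allow. Deviations of same-numbered libraries over all regions correlated at −0.171, −0.233 and 0.280. Over regions between close gene ends they correlated at 0.0836, −0.0260 and 0.133. With 2 libraries per group these values cannot show whether the numbers pair the samples. Crossed pairs, chosen after the data were seen and run for the first and second comparison, also gave 0.5, so neither pairing could make a call. Outlier checks need groups of at least 4 and were not run.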

Other observations

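Regions near the ends of 3 genes numbered 15, and none had more. The most recurrent was that of Borcs8, Gm45929 and Rfxank, a regulator of MHC class II genes, found in 4 libraries with scores of 2.12 and 7.62 in control-GFP and 5.71 and 9.14 in knockout-GFP. Ubr7, Gm20604 and Gon7 shared a region in 3 libraries with scores of 2.39, 3.43 and 3.14. Psme3ip1 with Rspry1 and a predicted gene shared one in 2 libraries. Cmc4, Mtcp1 and Brcc3 on chromosome X, and Rad17, Ak6 and Taf9 on chromosome 13, shared one in control-GFP 1 only. Overlapping gene models such as these count as different genes by the rule.

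The closest ends among regions in 3 or more libraries were a few bases apart. Rhoa, a GTPase of the actin cytoskeleton, and Tcta have starts 1 bp apart and scored 7.79 in control-GFP 1 and 7.57 and 13.3 in knockout-GFP 1 and 2. The lysosomal potassium channel gene Tmem175 and Gak, starts 2 bp apart, scored 2.98, 5.58 and 5.82 there. Further pairs included Dtl and Ints7 at 4 bp, and Klhl28 and Togaram1, crossing by 5 bp, scored 12.2, 7.90 and 14.1. Apaf1, the core of the apoptosome, and Ikbip crossed by 6 bp and scored 6.95, 7.08 and 18.8.

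The facing genes Brca1 and Nbr1 carried 3 separate regions. The region at 101552562 to 101552831 on chromosome 11 was in 3 libraries, and those at 101551939 to 101552089 and 101552154 to 101552328 were each in 1. In all, 25 sets of genes had more than 1 region.

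Of 1465 olfactory and vomeronasal receptor genes, 11 had a close neighbour and 1 lay at a region, Vmn1r4 beside Nt5c3.

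At the 1000 bp limit, the regions just inside lay 994 bp (Ctnna1 with Gm46617), 992 bp (Ccna2 with Bbs7) and 990 bp (Kcnab2 with Nphp4) from the second gene. Those just outside lay at 1003 bp (Tspyl2 with Gpr173, and Rpl7 with Rdh10) and 1007 bp (Samd4b with Gmfg).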
